A study of Mus musculus with 4 samples.

Results

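Levels and isoforms of 10 imprinted genes were followed from the mouse oocyte to the blastocyst and in embryonic stem cells. The genes were H19, Igf2r, Peg3, Snurf, Mest, Grb10, Cdkn1c, Impact, Peg10 and Sgce, taken by symbol from the gene table (20171 genes) and from the isoform table (68012 isoforms). Of the 10, 9 had a row in the gene table. Snurf had none of its own: its reading frame lies in the first part of the same RNA as Snrpn, which has a row, so Snrpn is described in its place and kept out of the counts of the listed genes. The isoform table held 21 isoforms of 4 of the listed genes (16 of Mest, 2 of Igf2r, 2 of Cdkn1c, 1 of Impact) and 14 of Snrpn. The tables count both parental copies together, so nothing below gives the allele an RNA came from.

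An imprinted gene is transcribed mainly from the copy inherited from one parent, because DNA methylation laid down in the egg or the sperm marks the copies differently. In preimplantation embryos these marks are kept through the loss of methylation elsewhere in the genome, with the help of proteins such as the zinc finger protein ZFP57, which binds its methylated target hexamer TGCCGC. Several of the genes act on growth. Igf2r encodes the receptor that takes the growth factor IGF2 to the lysosome, Grb10 an adaptor that dampens insulin and IGF receptor signalling, and Cdkn1c the cyclin-dependent kinase inhibitor p57. Mest, Snrpn, Snurf, Peg3, Peg10, Sgce and Impact are usually transcribed from the paternal copy, and H19, Igf2r, Grb10 and Cdkn1c from the maternal copy.

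Single cells were read as full-length cDNA by PacBio sequencing with cell barcodes and unique molecular identifiers (UMIs, which count each captured RNA molecule once). Females were C57BL/6J of 6 to 8 weeks, given PMSG and hCG, and the males were DBA/2NCrl; the submitters' strain label is DBA/2J x C57BL/6J. Cells were collected by hours after hCG: unmated oocytes at 20, zygotes at 22 to 24, early 2-cell embryos (E2C) at 30 to 32, late 2-cell embryos (L2C) at 46 to 48, 4-cell embryos at 54 to 56, 8-cell embryos at 68 to 70, 16-cell and 32-cell embryos at 78 to 80 and early blastocysts at 88 to 90. All these groups share the hormone treatment. The embryonic stem cells (mESC) were the male line E14 Tg2A, grown in culture. Each oocyte, zygote or embryo that a cell is named for counted as 1 replicate: 10 oocytes, 9 zygotes and 24 embryos (5 E2C, 6 L2C, 5 4-cell, 4 8-cell, 4 16-cell) with 121 of the 161 cells. The 22 cells of 32-cell embryos, 13 of blastocysts and 5 mESC name no embryo or culture. Only their range and median are given, with no test, and stage and sequencing run cannot be told apart for them. A run was assigned to oocytes and zygotes only. The steps from zygote to 16-cell were therefore compared without the run, and a difference between runs is not separated from the stage in them. A separate batch held 4 oocytes, taken as intact, with 6 libraries of 1/2 oocytes and 6 of 1/4 oocytes.

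The results turn on where the Mest and Snrpn RNAs begin, so the sequence just before each start is given first, from the RefSeq promoter table (GRCm38.p6), with any match to the ZFP57 hexamer TGCCGC or its reverse complement GCGGCA in capitals. The first sequence is the 250 bases before the main annotated start of Mest (chr6:30737800-30738049, plus strand), the start that led in the mESC. The second is the 82 bases before the start that led in oocytes (chr6:30733256-30733337, plus strand), 4.71 kb upstream. The third is the 250 bases before the main start of Snrpn and Snurf (chr7:60005200-60005449, minus strand). None of the 3 overlaps an annotated or deposited exon.
Mest, before the main start: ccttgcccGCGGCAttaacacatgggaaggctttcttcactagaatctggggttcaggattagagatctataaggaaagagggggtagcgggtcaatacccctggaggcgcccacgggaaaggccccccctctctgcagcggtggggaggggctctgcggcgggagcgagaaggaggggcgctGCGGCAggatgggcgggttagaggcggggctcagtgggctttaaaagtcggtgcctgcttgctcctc
Mest, before the oocyte start: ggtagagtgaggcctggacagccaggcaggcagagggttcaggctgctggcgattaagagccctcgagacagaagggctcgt
Snrpn and Snurf, before the main start: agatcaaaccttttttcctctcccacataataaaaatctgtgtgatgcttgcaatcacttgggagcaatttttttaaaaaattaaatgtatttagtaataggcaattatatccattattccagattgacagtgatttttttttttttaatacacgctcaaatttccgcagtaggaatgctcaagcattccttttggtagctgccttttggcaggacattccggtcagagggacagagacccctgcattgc
The first held 2 matches, both as GCGGCA, and 14 CpG dinucleotides. The second held 0 matches with 3 CpG, and the third 0 matches with 3 CpG. Of 32817 promoters of 250 bases in the table, 8.68% held at least 1 match on either strand, 0.875% held 2 or more, and 29.3% had 14 or more CpG; the median was 6. A match is a run of letters and not evidence of binding. Promoters of 5 of the listed genes were in the table.

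Values are copies per 100,000 UMIs of a cell, averaged over the cells of an embryo. Embryos had unequal numbers of cells. L2C replicate 1 was a single cell of low depth, in which 1 UMI is 5.56 copies. A cell had 4985 to 389775 gene UMIs (median 38914), with 166731 to 255836 in oocytes, 194072 to 389775 in zygotes and 14267 to 25042 in mESC, so 1 UMI is worth more in later stages. The floor that a count of 0 allows, 3 UMIs of all UMIs of the stage, ran from 0.123 copies in zygotes to 0.572 in 4-cell embryos and was 2.90 in mESC; floors and intervals cover counting error only. Together the listed genes made up 0.0200% of all copies. The stage labels were checked against marker genes. The summed level of 5 oocyte markers had a median of 1922 copies in oocytes, 591 in E2C and 76.9 in L2C. That of 5 stem cell markers was 30.8 in E2C, 175 in L2C and 1200 in mESC. Both followed the order of the labels at these stages. Compared with L2C, the oocyte set was higher at 4-cell (106), 16-cell (112) and blastocyst (132), and lower at 8-cell, 32-cell and mESC. The stem cell set fell from 492 at 16-cell to 419 at 32-cell and rose at every other step. The 5 blastocyst markers had a median of 31.1 in blastocyst cells, below 8-cell (31.7), 16-cell (37.7) and 32-cell (33.5), against the order of the labels. Up to 4-cell their median was at most 9.06. The summed level of 5 late 2-cell markers (Zscan4c, Zscan4d, Zfp352, Usp17lc and Tcstv3) had a median of 15.9 in E2C and 4.41 in L2C, against the order of those labels. Cumulus cell markers (5 of 8 with a row) summed to at most 7.01 copies in any cell, and sperm markers (3 of 4 with a row) to at most 4.89.

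Adjacent stages from oocyte to 16-cell were compared with limma on log2(copies + 1), and a gene was called where its log2 fold change exceeded 1 in either direction at an unadjusted p under 0.01. The adjusted p-values printed use the Benjamini-Hochberg method across the 11682 genes tested. A gene was tested if it reached 1 copy in at least 4 embryos, which 7 of the listed genes did; H19 and Peg10 did not. The 7 genes gave 6 calls in 6 comparisons, in 4 genes (Mest, Igf2r, Grb10 and Cdkn1c), and all 6 had an adjusted p under 0.05. The count was 2 with a pseudocount of 5 in place of 1, and 3 each with edgeR and DESeq2. Of the calls, 1 of 7 genes fell from oocyte to zygote, where 3.24% of all genes were called and 0.325% were lower. From E2C to L2C 4 of 7 were called, 2 higher and 2 lower, where 48.4% of all genes were called (25.6% higher, 22.8% lower), so the share of listed genes was near that of all genes. From 4-cell to 8-cell 1 of 7 fell, against 15% of all genes called and 10.5% lower. From zygote to E2C limma called 0 of 7 (2 with an unadjusted p under 0.05; 7.27% of all genes called). It also called 0 of 7 at L2C to 4-cell (1 with an unadjusted p under 0.05, 6.69% of all genes called). At 8-cell to 16-cell it called 0 of 7 (0 with an unadjusted p under 0.05, 3.36% of all genes called). edgeR and DESeq2 called 0 in these 3 comparisons too. Their own filter took out Grb10, and whether Peg3, Impact and Sgce, with their low counts, passed it is not given here. That 0 therefore does not cover all 7 genes.

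**Figure D1:**
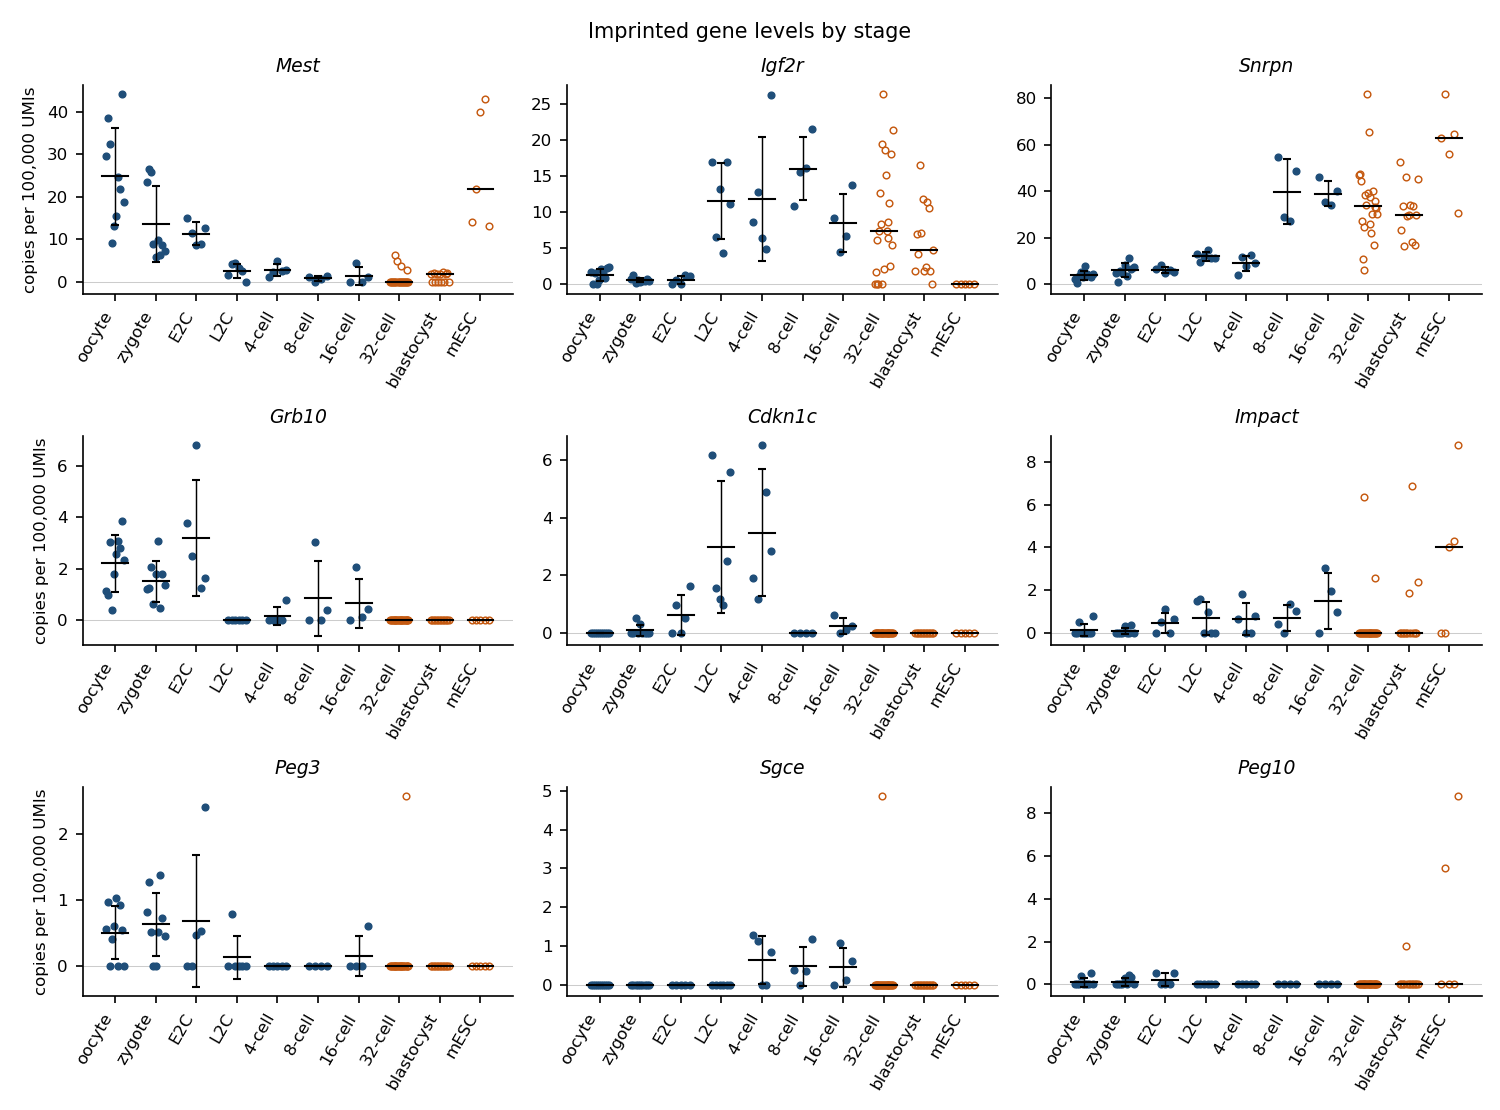
Level of 9 genes (y axis, copies per 100,000 UMIs) by stage (x axis). Filled points are oocytes, zygotes or embryos with the mean and SD, open points are single cells with the median; each panel has its own scale. Mest was high in oocytes and in mESC, Igf2r rose at L2C, Snrpn rose at the 8-cell stage, Grb10 was at 0 in all 6 L2C embryos and Cdkn1c at 0 in all 4 8-cell embryos.

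Mest, which encodes a predicted hydrolase and is best known from mesoderm, was the listed gene with the most molecules counted in oocytes. The gene lies at chr6:30723547-30748465 on the plus strand (GENCODE vM21). In the 10 oocytes its level ran from 9.16 to 44.2 copies with a median of 23.3, and the mean was 24.8 ± 11.3 (SD, n = 10). In the 9 zygotes it ran from 5.74 to 26.7 with a median of 8.99, and the mean was 13.7 ± 8.91 (SD, n = 9). Oocytes were higher on average, and the ranges overlapped. Mest fell by 1.01 on the log2 scale (SE 0.24, limma adjusted p = 0.00206). The level moved with the sequencing run. In run 1 the 5 oocytes ran from 13.2 to 24.7 copies and the 4 zygotes from 6.42 to 9.79. In run 3 the 4 oocytes ran from 29.7 to 44.2 and the 3 zygotes from 23.5 to 26.7. Run 2 held 1 oocyte at 9.16 and 2 zygotes at 5.74 and 8.99. Every oocyte was above every zygote of its own run, and the differences of the mean log2 values within runs were -1.11, -0.31 and -0.48. With the run as a replicate block the change was -0.78 (limma adjusted p = 3.59e-04), which misses the limit on size; the call is lost in 6 of 10 alternatives, this block among them.

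In the 5 E2C embryos Mest stood at 15.1, 11.4, 8.69, 8.99 and 12.6 copies. In the 6 L2C embryos it stood at 1.61, 4.15, 4.34, 3.36, 2.48 and 0. Every E2C embryo was above every L2C embryo, and the mean went from 11.4 ± 2.65 (SD, n = 5) to 2.66 ± 1.66 (SD, n = 6). The L2C embryo at 0 was a single cell in which 1 UMI is 5.56 copies, so its 0 says little about overlap. Mest fell by 1.69 on the log2 scale (SE 0.45, limma adjusted p = 0.00110), and the call is lost with summed isoforms (-1.24, limma adjusted p = 0.0982). The 4-cell embryos had 2.73 ± 1.37 copies (SD, n = 5), the 8-cell embryos 0.830 ± 0.632 (SD, n = 4) and those of 16 cells 1.42 ± 2.12 (SD, n = 4), and none of these steps was called. In 32-cell embryos 4 of 22 cells had a UMI, and in blastocysts 7 of 13 did, with a highest cell at 2.29 copies. All 5 mESC had Mest, at 13.2 to 43.0 copies with a median of 21.8. Copg2, which is transcribed from the opposite strand next to Mest, had 57 UMIs in oocytes and 67 in zygotes against 493 and 343 of Mest. The study reports spliced mapping with the option -uf, for the transcript strand, and gene assignment with gffcompare. Whether Copg2 reads were counted as Mest, or the reverse, was not tested.

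In batches 1 to 3, most Mest isoform UMIs of oocytes began upstream of the main start, and most of those of mESC began at it. The main start of the annotated promoter is at chr6:30738050. Of the 16 isoforms, 8 began 4.55 to 6.09 kb upstream, 1 began within 100 bases of the main start and 7 began further in. In oocytes 187 of 220 isoform UMIs had an upstream start (85.0%, exact Clopper-Pearson 95% interval 79.6 to 89.4%), 33 an internal one and 0 the main start (interval up to 1.66%). In zygotes 95 of 120 had an upstream start (79.2%) and 0 the main one. Per oocyte the upstream share ran from 0% (replicate 6, with 3 isoform UMIs) to 100%, and per zygote from 0% (replicate 3, with 1) to 90.4%. Zygotes 7, 8 and 9, those of run 3, had 47, 16 and 17 upstream UMIs, and each other zygote had 0 to 5. The pooled share of zygotes therefore rests mostly on run 3. E2C had 11 upstream and 0 main of 16 UMIs, L2C 4 upstream and 0 main of 5, and the stages from 4-cell to blastocyst together too few UMIs to compare (1 to 3 each, and 0 in 32-cell embryos). In mESC 17 of 19 UMIs had the main start (89.5%, interval 66.9 to 98.7%) and 1 an upstream start. These shares were looked at after the isoform values had been seen, and no test was run, since the mESC have no named replicates. The intervals treat UMIs of a stage as independent.

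The leading oocyte isoform, PB.61428.30, has the introns of the annotated transcript Mest-210, begins at chr6:30733338, the base after the second sequence printed above, and had 103 UMIs in oocytes and 50 in zygotes. Its level went from 7.55 to 2.67 copies from oocyte to zygote. It fell by 1.52 on the log2 scale (SE 0.34, limma adjusted p = 0.00347 over 29409 isoforms, 1.48% of which were called), and the embryos overlapped. The isoform of the main start, PB.61428.51, has those of Mest-211, begins at chr6:30738051 and had 0 UMIs in oocytes and zygotes and 17 in mESC. Both share the exons from the second of Mest-211 onward and differ in the first exon, and their annotated proteins have 326 and 335 residues. The next most counted isoforms, PB.61428.32 and PB.61428.20, also began upstream and had 32 and 19 UMIs in oocytes. Isoforms held 38.2% of all Mest gene UMIs, against 69.4% over all genes, so most Mest molecules have no start on record here.

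**Figure D2:**
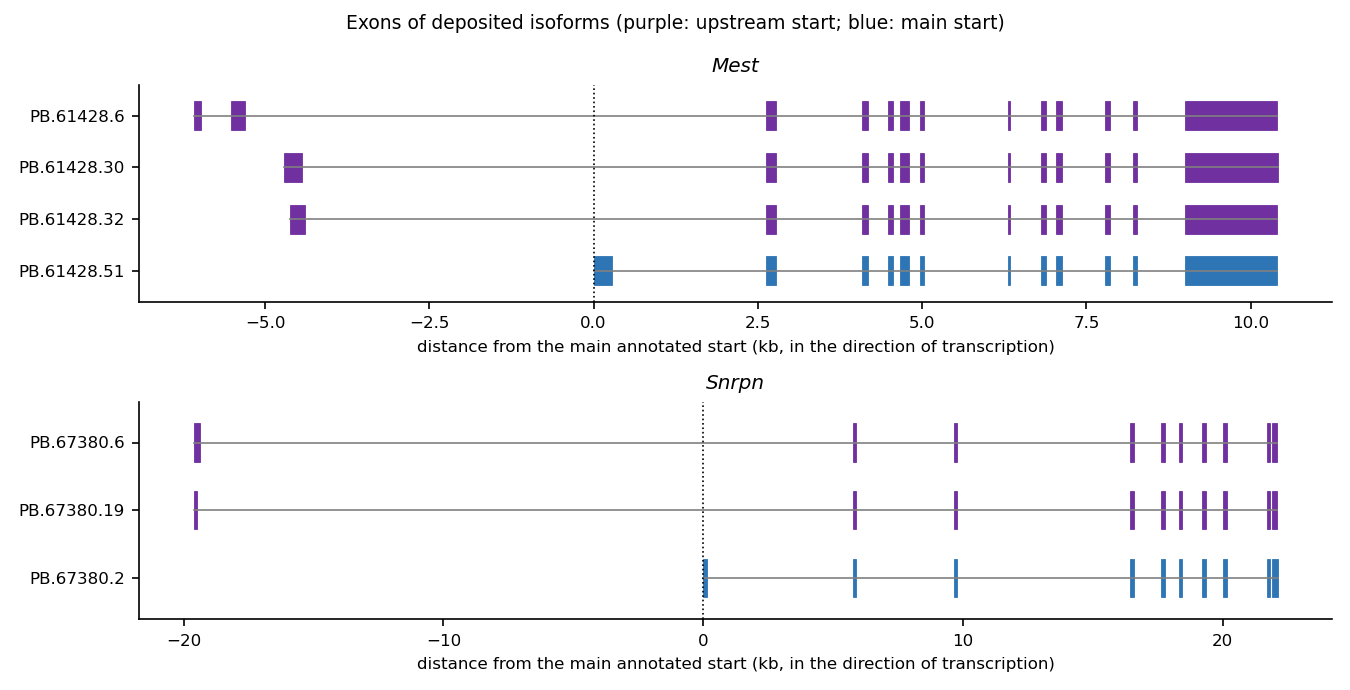
Exons (boxes) of 4 Mest and 3 Snrpn isoforms by distance from the main annotated start in kb, in the direction of transcription; the dotted line is the main start. The upstream isoforms (purple) skip the first exon of the main-start isoform (blue), with starts 4.71 kb (PB.61428.30) and 19.6 kb (PB.67380.6) upstream, and share the later exons.

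Snrpn encodes a spliceosome core protein and carries the Snurf frame, whose start codon lies at chr7:60005047-60005049 and whose protein has 71 residues. From the 8-cell stage to mESC it had more UMIs than any listed gene. Oocytes had 3.84 ± 1.93 copies (SD, n = 10), zygotes 5.98 ± 3.01 (SD, n = 9), E2C embryos 6.33 ± 1.24 (SD, n = 5) and L2C embryos 12.1 ± 1.87 (SD, n = 6). Each L2C embryo (9.56 to 15.0) was above each E2C embryo (5.09 to 8.27), yet the log2 change of 0.85 missed the limits (limma adjusted p = 0.0712). The 5 4-cell embryos stood at 4.23, 11.7, 7.85, 12.5 and 9.09 copies, and the 4 8-cell embryos at 54.97, 28.8, 27.1 and 48.8. All 8-cell embryos lay above all 4-cell embryos. Snrpn rose by 2.26 on the log2 scale (SE 0.44, limma adjusted p = 1.48e-04), 4.80-fold on the scale of copies + 1. It stayed near that level, at 39.0 ± 5.40 (SD, n = 4) in 16-cell embryos, with medians of 33.7 in cells of 32-cell embryos, 29.8 in blastocyst cells and 63.1 in mESC.

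Of the 14 Snrpn isoforms, 3 began upstream of the main start (chr7:60005199), at 19.6 and 92.4 kb, 3 began within 100 bases of it and 8 further in. The 3 main-start isoforms hold the Snurf start codon and the 3 upstream ones do not. The leading main-start isoform, PB.67380.2, has the introns of Snrpn-201 (240 residues) and had 1046 of the 1471 Snrpn isoform UMIs. It was called in both of these steps. Its mean went from 1.23 to 9.16 copies from E2C to L2C (log2 change 2.13, limma adjusted p = 0.00131 over all isoforms, 26% of which were called) and from 4.28 to 37.5 from 4-cell to 8-cell (log2 change 2.89, limma adjusted p = 1.68e-04, 7.93% of isoforms called). Embryos did not overlap in either step. The leading upstream isoform, PB.67380.6, had 8 UMIs in oocytes, 26 in zygotes and 9 in E2C, and 3 in all stages after that.

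Upstream starts made up 17 of 60 Snrpn isoform UMIs in oocytes, 33 of 83 in zygotes and 12 of 42 in E2C (28.6%, interval 15.7 to 44.6%). They made up 1 of 56 in L2C, 0 of 33 in 4-cell, 0 of 319 in 8-cell (interval up to 1.15%) and 1 of 389 in 16-cell embryos. Per embryo the share was 0, 42.9, 50, 22.2 and 14.3% in the 5 E2C embryos, and in the 6 L2C embryos it was 0% in 5 and 6.25% in 1. The means were 25.9% ± 20.5 (SD, n = 5) for E2C and 1.04% ± 2.55 (SD, n = 6) for L2C, with a two-sided exact permutation p of 0.0303, or 0.182 adjusted over the 6 stage steps, so the drop does not pass the correction. The step was chosen after its values were seen, and p rose to 0.0667 without any 1 of E2C embryos 1, 2, 3 or 4. With internal starts left out the E2C share was 63.9% ± 36.1 (SD, n = 4) and that of L2C was 1.11% ± 2.72 (SD, n = 6), with an exact permutation p of 0.00952, the smallest these numbers allow, and 0.0571 after adjustment. The shares of a gene's single isoforms were tested with limma as well, and 0 isoforms of the listed genes or Snrpn were called in any of the 6 comparisons (3, 1, 3, 2, 0 and 0 isoforms with an unadjusted p under 0.05), where 0.0188, 1.58, 11.2, 0.0513, 0.112 and 0% of all genes with several isoforms were called. In levels, the other 3 steps gave 0 calls of these isoforms, against 5.18% of all isoforms at zygote to E2C, 4.29% at L2C to 4-cell and 1.97% at 8-cell to 16-cell. Only 2, 2, 2, 3, 2 and 1 of the listed genes and Snrpn entered the test of shares in the 6 comparisons in order. Among the shares the lowest limma adjusted p was 0.0559, for that of PB.67380.2 from E2C to L2C (53.2 percentage points higher).

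**Figure D3:**
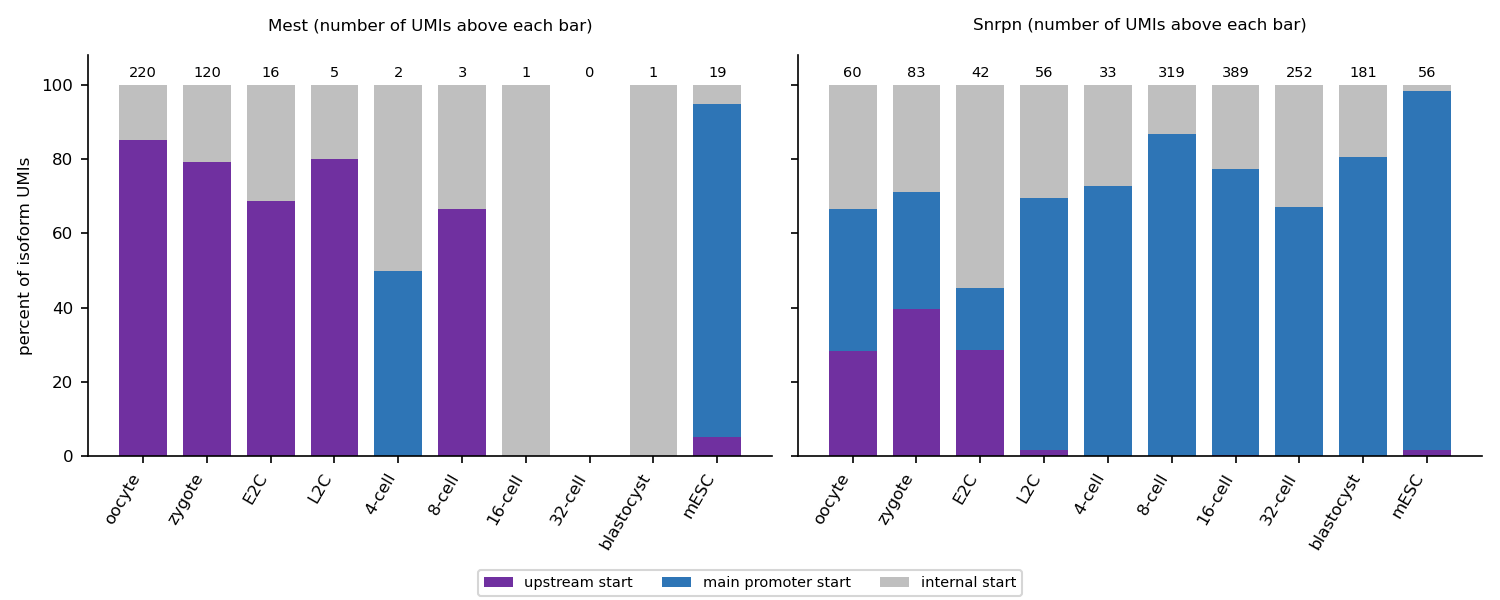
Percent of isoform UMIs (y axis) by start class for Mest and Snrpn at each stage (x axis), UMIs summed over the cells of a stage, with the number of UMIs above each bar. Mest upstream starts led in oocytes (85.0%) and the main start led in mESC (89.5%), while Snrpn upstream starts went from 28.6% in E2C to 1.79% in L2C; most Mest bars between L2C and blastocyst rest on 1 to 5 UMIs.

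Igf2r (chr17:12682406-12769664, minus strand) was low up to E2C, with means of 0.597 to 1.29 copies, and present in every embryo from L2C to 16-cell. Oocytes had 1.29 ± 0.867 copies (SD, n = 10), zygotes 0.601 ± 0.309 (SD, n = 9) and E2C embryos 0.597 ± 0.609 (SD, n = 5), the last from 5 UMIs. The 5 E2C embryos stood at 0, 0.551, 0, 1.24 and 1.20 copies, and the 6 L2C embryos at 17.0, 6.50, 13.2, 4.34, 16.9 and 11.1. No L2C embryo overlapped an E2C embryo. Igf2r rose by 2.90 on the log2 scale (SE 0.41, limma adjusted p = 1.45e-08), 7.44-fold on the scale of copies + 1. The later steps were not called: 4-cell embryos had 11.8 ± 8.59 copies (SD, n = 5), 8-cell embryos 16.0 ± 4.34 (SD, n = 4) and those of 16 cells 8.53 ± 3.98 (SD, n = 4), with overlapping embryos throughout. A UMI was found in 18 of 22 cells of 32-cell embryos (median 7.38 copies) and in 12 of 13 blastocyst cells (median 4.78). In mESC Igf2r was 0 in all 5 cells, which at their depth allows up to 2.90 copies. Airn, the noncoding RNA transcribed from the opposite strand within Igf2r, had 14 UMIs in all, 7 of them in oocytes and 0 in L2C.

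Only 6.26% of Igf2r gene UMIs were in deposited isoforms, and both of those isoforms are short. Each joins an exon at the annotated first exon of Igf2r-201, a transcript of 48 exons, to a last exon inside intron 1 that overlaps no annotated Igf2r exon: chr17:12751713-12751985 in PB.31746.49 and chr17:12764949-12765177 in PB.31746.57. They had 10 and 22 UMIs, 13 of them in L2C, where the gene had 69. PB.31746.57 was called higher from E2C to L2C (0 to 1.62 copies, log2 change 1.03, limma adjusted p = 0.0150) and lower from 4-cell to 8-cell (2.15 to 0.304 copies, log2 change -1.39, limma adjusted p = 0.00498), with overlapping embryos in both steps. The level of the gene did not fall at that second step (11.8 to 16.0 copies, not called), and the difference between gene and isoform was not tested.

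Grb10 (chr11:11930508-12038683, minus strand) was present in all oocytes, zygotes and E2C embryos and in no L2C embryo. Oocytes had 2.20 ± 1.10 copies (SD, n = 10) and zygotes 1.52 ± 0.793 (SD, n = 9). The 5 E2C embryos stood at 3.77, 2.48, 6.80, 1.24 and 1.64 copies, from 26 UMIs, and all 6 L2C embryos were at 0. The 0 of L2C replicate 1 says little, since 1 UMI of that single cell is 5.56 copies. Grb10 fell by 1.92 on the log2 scale (SE 0.40, limma adjusted p = 3.66e-05), and with a pseudocount of 5 the change was -0.67 and the call is lost. The E2C mean of 3.18 was 6.36 times the floor of 3 UMIs over the L2C group, 0.5004 copies. That mean is over embryos and the floor over pooled UMIs, and the spread of the mean is not in the ratio, so it is not a lower bound. Later embryos had 1 UMI at 4-cell, 2 at 8-cell and 4 at 16-cell, and cells of 32-cell embryos, blastocysts and mESC had 0. No Grb10 isoform was in the isoform table.

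Cdkn1c (chr7:143458339-143461050, minus strand) was found over a short window. It was 0 in the 10 oocytes and had 3 UMIs in the 9 zygotes. The 5 E2C embryos stood at 0, 0.965, 0, 0.5264 and 1.64 copies, and the 6 L2C embryos at 6.16, 1.57, 1.17, 0.985, 2.48 and 5.56. These values came from 6 UMIs in E2C and 16 in L2C, and the 5.56 was 1 UMI in the single cell of L2C replicate 1. L2C embryos were higher with an overlap, since 1 E2C embryo lay above 3 of L2C. Cdkn1c rose by 1.08 on the log2 scale (SE 0.30, limma adjusted p = 0.00165), a call that is lost without E2C replicate 3 or 5 or L2C replicate 6 (lowest log2 change 0.77) and also in edgeR, in DESeq2, with a pseudocount of 5 and under median-of-ratios scaling. The 5 4-cell embryos stood at 1.90, 1.19, 6.51, 4.90 and 2.84 copies, and all 4 8-cell embryos at 0. Cdkn1c fell by 1.73 on the log2 scale (SE 0.32, limma adjusted p = 6.60e-05), with no overlap, and with a pseudocount of 5 the change was -0.58 and the call is lost. The 4-cell mean of 3.47, from 14 UMIs, was 9.07 times the floor of the 8-cell group, 0.382 copies. As for Grb10, this ratio is not a lower bound. In 16-cell embryos there were 3 UMIs, and in later cells 0. Its isoforms PB.70026.4 and PB.70026.5 had 16 and 6 UMIs, most of them in L2C and 4-cell embryos (8 and 5, and 3 and 2), and neither was called.

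**Figure D4:**
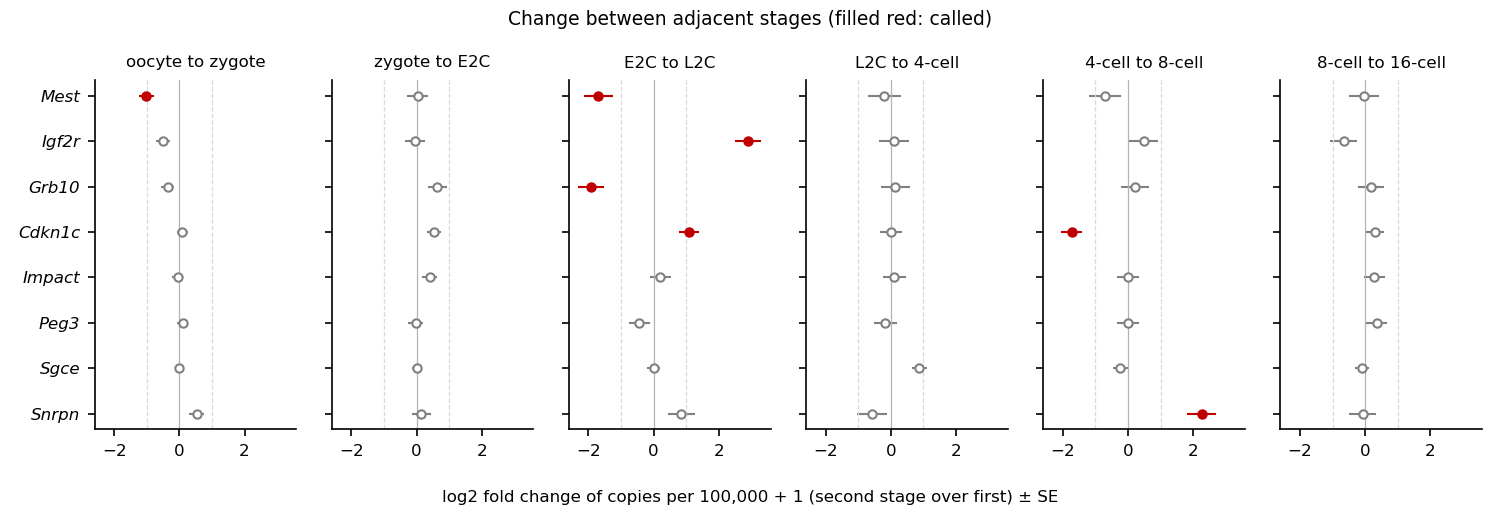
Log2 fold change (x axis, second stage over first, on copies + 1, with SE) of the 7 listed genes tested and Snrpn (rows) in the 6 comparisons of adjacent stages. Filled red points were called, 6 of them in listed genes: most of the calls fell at E2C to L2C, with Igf2r (2.90) and Cdkn1c (1.08) higher and Mest (-1.69) and Grb10 (-1.92) lower.

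The other listed genes stayed at low counts. Peg3, a zinc finger protein gene (chr7:6703892-6730431, minus strand), had 10 UMIs in oocytes, 14 in zygotes and 6 in E2C (0.506, 0.629 and 0.679 copies), 1 in L2C, 0 in 4-cell and 8-cell and 2 in 16-cell embryos. Impact, a regulator of translation under stress (chr18:12955852-12992950, plus strand), had between 2 and 16 UMIs in every stage. Its level was 1.48 ± 1.31 copies (SD, n = 4) in 16-cell embryos and 0 to 8.80 in mESC. Neither was called in any comparison (lowest limma adjusted p 0.232 for Peg3 and 0.246 for Impact). Sgce, which encodes a sarcoglycan of the cell membrane (chr6:4674350-4747207, minus strand), had 0 UMIs up to L2C and then 5, 5 and 4 in 4-cell, 8-cell and 16-cell embryos. From L2C to 4-cell its log2 change was 0.88 (limma adjusted p = 0.0205), under the limit on size. The 4-cell embryos stood at 0.656 ± 0.618 copies (SD, n = 5), close to the L2C floor of 0.5004.

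Peg10, a gene derived from a retrotransposon that lies head to head with Sgce (chr6:4747306-4760517, plus strand), had few molecules. It had 2, 3 and 2 UMIs in oocytes, zygotes and E2C, 0 from L2C to the 32-cell stage, 1 in blastocysts and 3 in 2 of 5 mESC. H19, a noncoding RNA (chr7:142575529-142578143, minus strand), had 1 UMI in all 161 cells, in a 4-cell embryo. Neither passed the filter, so neither was tested.

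Other imprinted genes and the factors that keep imprints were read from lists of 51 and 13 genes. The list of 51 was written from general knowledge, by the allele expressed in most tissues where a gene is imprinted. Whether these genes are imprinted at the stages here was not tested. Of 26 other genes that are usually paternal, Snrpn among them, 9 were tested, and from E2C to L2C 3 were higher and 2 lower (median log2 change 0.52, against 0.03 over all genes, 25.6% of which were called higher and 22.8% lower). Of 25 that are usually maternal, 12 were tested, and 1 was higher and 6 lower (median -1.003), against the same shares of all genes. At most 2 genes of either list were called in 1 direction in any other comparison, where 3.24% to 15% of all genes were called. The 1 higher maternal gene was Phlda2, a placental growth regulator, which went from 6.96 ± 3.60 copies (SD, n = 5) in E2C to 29.2 ± 19.3 (SD, n = 6) in L2C (log2 change 1.68, limma adjusted p = 0.00137). All 13 maintenance factors were tested. From oocyte to zygote 3 were higher and 0 lower, where 3.24% of all genes were called, 90.0% of those higher. From E2C to L2C 2 were higher and 4 lower, where 48.4% were called. At zygote to E2C 1 was higher and 2 lower (7.27% of all genes called), and at 4-cell to 8-cell 1 was lower (10.5% of all genes lower). L2C to 4-cell and 8-cell to 16-cell had 0 calls (6.69% and 3.36% of all genes). Zfp57, whose hexamer is marked in the Mest sequence above, rose from 21.7 to 81.0 copies from oocyte to zygote (log2 change 2.18, limma adjusted p = 3.75e-08) and went from 104 to 9.72 from E2C to L2C (log2 change -3.25, limma adjusted p = 1.91e-07). Dnmt1, the methyltransferase that copies methylation at replication, rose from 11.6 to 26.7 copies from oocyte to zygote. It was then called lower, at 8.80 copies in E2C (log2 change -1.50, limma adjusted p = 4.64e-04). Oocytes and zygotes overlapped for both genes when the runs were pooled. With the run as a replicate block the changes were 1.80 for Zfp57 (limma adjusted p = 9.82e-10) and 1.05 for Dnmt1 (limma adjusted p = 5.97e-05), and both calls held. Within runs 1, 2 and 3 the differences of the mean log2 values were 2.28, 0.64 and 1.64 for Zfp57 and 1.14, 1.49 and 0.82 for Dnmt1. With a pseudocount of 5 Dnmt1 had 0.96 and lost its call. Nlrp5, a maternal protein of the egg cortex, went from 22.4 to 2.30 copies from E2C to L2C (log2 change -2.81).

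The batch of intact and divided oocytes gave isoform counts only, with 182596 to 281036 UMIs in the 4 intact oocytes, 129744 to 289774 in the 1/2 oocytes and 137231 to 275297 in the 1/4 oocytes. The levels given for Mest are sums over its isoform labels. The intact oocytes stood at 26.2, 24.1, 32.0 and 42.6 copies per 100,000 isoform UMIs, and the 6 of 1/2 oocytes ran from 20.0 to 41.4 and the 6 of 1/4 oocytes from 16.9 to 38.5. The means were 31.2 ± 8.29 (SD, n = 4), 32.3 ± 8.37 (SD, n = 6) and 25.9 ± 7.28 (SD, n = 6), with overlapping libraries. Two-sided exact permutation tests gave p = 0.857 for 1/2 and 0.295 for 1/4 oocytes against intact ones (1 after adjustment over the genes and comparisons; the smallest p possible is 0.00952). Pieces of the same oocyte may not be independent. Igf2r had 2 UMIs and Impact 3 in the 16 libraries.

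The UMIs of Mest were spread over its 16 isoforms quite differently in that batch. In the oocytes of the first 3 batches the leading isoform held 46.8% of 220 UMIs, and the counts ran from 0 to 103. In the batch of divided oocytes it held 9.33% of 986 UMIs, and the counts ran from 44 to 92. The main-start isoform PB.61428.51, with 0 UMIs in those oocytes, had 60 here. The same held widely: among 1379 genes with at least 5 isoforms and 100 UMIs in both sets, the leading isoform held a median of 52.3% in the first and 27.8% in the second, and the share was lower in 1296 of them. The cause was not tested, nor whether it reaches the sums for Mest in this batch, and no isoform or start of this batch is used in the results above.

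**Figure D5:**
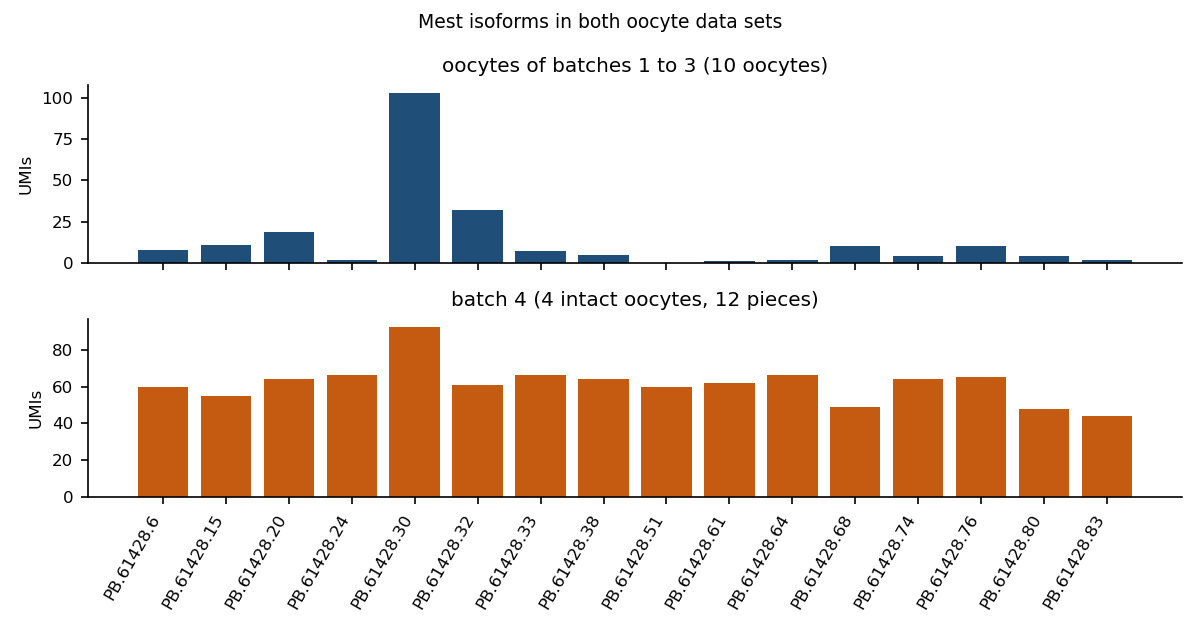
UMIs (y axis) of each of the 16 Mest isoforms (x axis) in the 10 oocytes of the first 3 batches (top) and in the 16 libraries of the batch of intact and divided oocytes (bottom), each panel on its own scale. The top panel has 1 leading isoform with 103 UMIs and the bottom panel runs from 44 to 92.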

How the data were processed

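Expression was measured by HIT-scISOseq, single-cell full-length cDNA sequencing on the PacBio platform. Per the study's methods, the authors used SMRT-Link and scISA-Tools on the reads, minimap2 for spliced mapping to mm10, gffcompare for gene assignment, cDNA_Cupcake to collapse isoforms and SQANTI3 to class them, and kept only isoforms found in 5 or more cells. For batches 1 to 3 the authors deposited the gene and isoform tables as a CPM-like value, copies per 100,000 UMIs per cell, and the columns listed as a score hold this same deposited unit. Batch 4 was deposited as whole counts of UMIs per isoform. All non-zero normalized values (100%) were whole multiples of 1 UMI within 0.1, and those UMIs were used for depth, floors, start classes and count models.

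Adjacent stages were compared with limma 3.58.1 in R 4.3.3 (trend, array weights, 7 stages in 1 fit) on log2(copies + 1), since the values are not counts, with a filter of 1 copy in 4 embryos. The calls use the study's limits. edgeR 4.0.16 and DESeq2 1.42.0 on recovered UMIs, other pseudocounts, no filter, no weights, another scaling, summed UMIs, isoform sums, the run as a block and leaving out each embryo were alternatives. P-values measure the spread between these embryos. For isoform shares limma was run after an arcsine square root transform. Other values used Python 3.11.15, pandas 2.3.3, numpy 2.4.6, scipy 1.17.1, statsmodels 0.14.6 and matplotlib 3.10.9. The scripts were tested on simulated data.

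The genes and lists were chosen with earlier results of these data known. Of the lists, genes called with a higher stage mean of at least 20 copies are named, at most 3 a comparison; of isoforms, up to 3 a gene with the most UMIs, and those called. Isoforms outside this rule were chosen after their values were seen. Genes were matched to GENCODE vM21 by symbol, and sequences to RefSeq by coordinates of the same build. Column names give no run; that of oocytes and zygotes was taken from the study's own list of cells, matched by name.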

Additional observations from a re-analysis of the deposited data

Results flagged for a closer look

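The main-start isoform of Mest, PB.61428.51, had 60 UMIs in the 16 libraries of batch 4 and 0 in the 10 oocytes of batches 1 to 3. It drew attention because batch 4 lies outside the comparisons between stages and the isoform was not seen in the other oocytes. The other 15 Mest isoforms of batch 4 had 44 to 92 UMIs. Of 24 groups of 4 to 10 embryos in which a gene averaged at least 1 copy per 100,000, 0 held an embryo far from the others by Dixon's test at the 95% level.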

How the results depend on the processing

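The 6 calls of listed genes became 2 with a pseudocount of 5 and 3 each with edgeR and DESeq2, and ranged from 5 to 7 when 1 embryo at a time was left out. Igf2r from E2C to L2C (log2 change 1.46 to 3.91 over 9 alternatives, adjusted p 1.14e-09 to 3.11e-04) and Snrpn from 4-cell to 8-cell (1.81 to 2.68, adjusted p 1.25e-08 to 0.00302) kept their calls throughout. Mest from oocyte to zygote lost its call in 6 of 10 alternatives (-1.44 to -0.78, adjusted p 3.43e-04 to 0.126), among them the run as a replicate block, which left 0 of 1 calls there. Cdkn1c from E2C to L2C lost its call in 4 of 9 (0.41 to 1.63, adjusted p 3.55e-05 to 0.178). Grb10 (in 6 alternatives; it did not pass the filter of edgeR or DESeq2) and Cdkn1c from 4-cell to 8-cell lost theirs with a pseudocount of 5 only (-0.67 and -0.58), and Mest from E2C to L2C with summed isoforms only (-1.24, adjusted p 0.0982). Sgce from L2C to 4-cell gained a call with a pseudocount of 0.5 (1.37) and without 4-cell replicate 3 (1.02), and Igf2r from 4-cell to 8-cell in summed isoforms (-1.19). The cause was not tested. The 3 called isoform steps became 7 with a pseudocount of 0.5 and 2 to 4 with an embryo left out, and isoform shares stayed at 0 to 0.

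Over all genes, a pseudocount of 0.5 gave 758 calls in place of 379 from oocyte to zygote and 1359 in place of 849 from zygote to E2C. A pseudocount of 5 gave 53, 168, 2657, 138, 544 and 47 in the 6 comparisons in order, in place of 379, 849, 5654, 782, 1749 and 393. The replicate block gave 190 from oocyte to zygote against 419 in the same samples without it; the groups share no replicate numbers from the labels that could pair other stages. From L2C to 4-cell leaving out the weights gave 1183 and DESeq2 473, and from 8-cell to 16-cell edgeR gave 261 and DESeq2 203. Leaving out embryos gave 377 to 381, 805 to 977, 5336 to 5675, 430 to 902, 1417 to 1757 and 319 to 582 in the same order, with 430 and 477 from L2C to 4-cell without 4-cell replicate 4 or 5. Median-of-ratios scaling moved the median of all genes from E2C to L2C from 0.03 to -0.21 and the share of calls that were higher from 52.9% to 41.6%. The log2 change of Igf2r from E2C to L2C was then 2.45. From 4-cell to 8-cell the share of calls that were higher moved from 29.8% to 45.6%. The difference of Mest between 1/2 and intact oocytes, 1.12 copies, ran from -1.26 to 4.91 with an intact oocyte left out and reversed to -0.571 without replicate 1 and -1.26 without replicate 2; that of 1/4 oocytes ran from -7.65 to -1.49. The upstream share of Snrpn from E2C to L2C ran from -31.3 to -18.8 percentage points. Low counts limit H19, Peg10, Sgce, Peg3 and Impact, and any stage of Mest isoforms after L2C.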

Other observations

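Over the 43 oocytes, zygotes and embryos, the genes with a level pattern most like that of Mest, among 2105 genes with a stage mean of at least 20 copies, were 1190005I06Rik (Pearson r 0.93 of log2 values) and Eif4e3 (r 0.91), a member of the cap-binding protein family. 1190005I06Rik went from a mean of 58.3 copies in oocytes and 25.5 in E2C to 5.29 in L2C, and Eif4e3 from 32.4 and 39.7 to 3.39. The points share library depth, which is higher in oocytes and zygotes than in later stages, and the likeness is a description with no test.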
